A study of Mus musculus with 6 samples.

Results

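Nuclear hormone receptors are transcription factors that bind DNA directly and, for most of them, change activity when a small lipid-like molecule occupies their ligand pocket. The 37 receptor genes described here were picked by name from the 24061 gene rows of a table of RNA sequencing counts from mouse lung, by a rule that uses no measured value, though earlier results of these data were known when the list was made. They cover steroid, retinoid, thyroid hormone and vitamin D receptors, lipid sensors, clock receptors and receptors with no settled ligand. The comparison was between 2 groups of 3 lung samples. The first carried the CCSP and TGFalpha transgenes together (CCSP/TGFalpha) and the second carried CCSP without TGFalpha (CCSP/-), and every mouse in both groups had been given doxycycline for 3 weeks. The series title places the model in pulmonary fibrosis driven by TGFα, a ligand of the epidermal growth factor receptor. The promoter of the club cell secretory protein gene (CCSP) is used in mice to direct doxycycline-dependent transgenes to lung epithelium, so the control mice carry that component and the drug as well. The labels do not say whether replicates came from separate animals, and the p-values therefore measure only the spread between these samples, which may be technical.

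Steroid receptors such as the glucocorticoid receptor bind DNA as pairs of like subunits after hormone binding, whereas the receptors for retinoic acid, thyroid hormone, vitamin D, oxysterols and bile acids pair with a retinoid X receptor. Without ligand many of this second class hold corepressors on their target genes, and ligand exchanges these for coactivators. In lung, glucocorticoid signalling is known for its role in maturation before birth, retinoic acid for the formation of alveolar septa, and the REV-ERB receptors for the daily rhythm of airway inflammation.

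Total counts ran from 23317747 to 24914322 per library in CCSP/TGFalpha lungs and from 21479006 to 24837861 in CCSP/- lungs, and 16089 genes had enough counts to be tested. The mouse Tgfa row averaged 27.5 ± 2.09 CPM, a count scaled to a library of common size, in CCSP/TGFalpha lungs and 25.8 ± 2.94 CPM in CCSP/- lungs (SD, n = 3 each; adjusted p = 0.739), and the sources used here do not say whether transgene reads fall in that row, so it does not check the genotype labels. Egfr, which encodes the receptor of TGFα, averaged 49.6 ± 6.88 CPM against 29.8 ± 4.51 CPM (adjusted p = 0.0414), a call that was lost in each of the 6 fits with 1 library left out. Lung markers were abundant in all libraries, with the 9 genes listed for alveolar type 2 cells summing to 16603 to 18448 CPM in CCSP/TGFalpha lungs and 14231 to 18809 CPM in CCSP/- lungs. The 9 skeletal muscle genes summed to 2361 CPM in CCSP/TGFalpha replicate 1 and 1393 CPM in CCSP/- replicate 1, against 52.2 to 69.7 CPM in the other 4 libraries, so each count below was also taken without both of those replicates.

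Of the 37 receptors, 35 were tested and 7 passed an adjusted p of 0.05 in the quasi-likelihood test of edgeR, which is 20% of those tested. Over all genes tested the share was 8.33%. Nr1h4 and Vdr were higher in CCSP/TGFalpha lungs, where 5.03% of all genes were, and Esr2, Pgr, Nr3c2, Rara and Nr4a1 were lower, as 3.29% of all genes were. The other 28 did not pass. In CPM, 14 receptors had groups without overlap, 5 with the CCSP/TGFalpha lungs above and 9 with them below. That is 40% of those tested, against 33.2% of all genes (17.7% above and 15.5% below). The median log2 fold change of CCSP/TGFalpha over CCSP/- was −0.16 over the 35 receptors and 0.01 over all genes, with 14 receptors positive and 21 negative. DESeq2 called 10 receptors (14.5% of its genes passed) and limma-voom 9 (8.7%). The number that passed was 4, 3 and 4 without CCSP/TGFalpha replicates 1, 2 and 3, where 2.51, 3.43 and 6.6% of all genes passed. It was 6, 2 and 0 without CCSP/- replicates 1, 2 and 3, where 6.14, 1.86 and 1.44% of all genes passed. Without both replicates numbered 1 there were 2, Esr2 and Pgr.

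**Figure D1:**
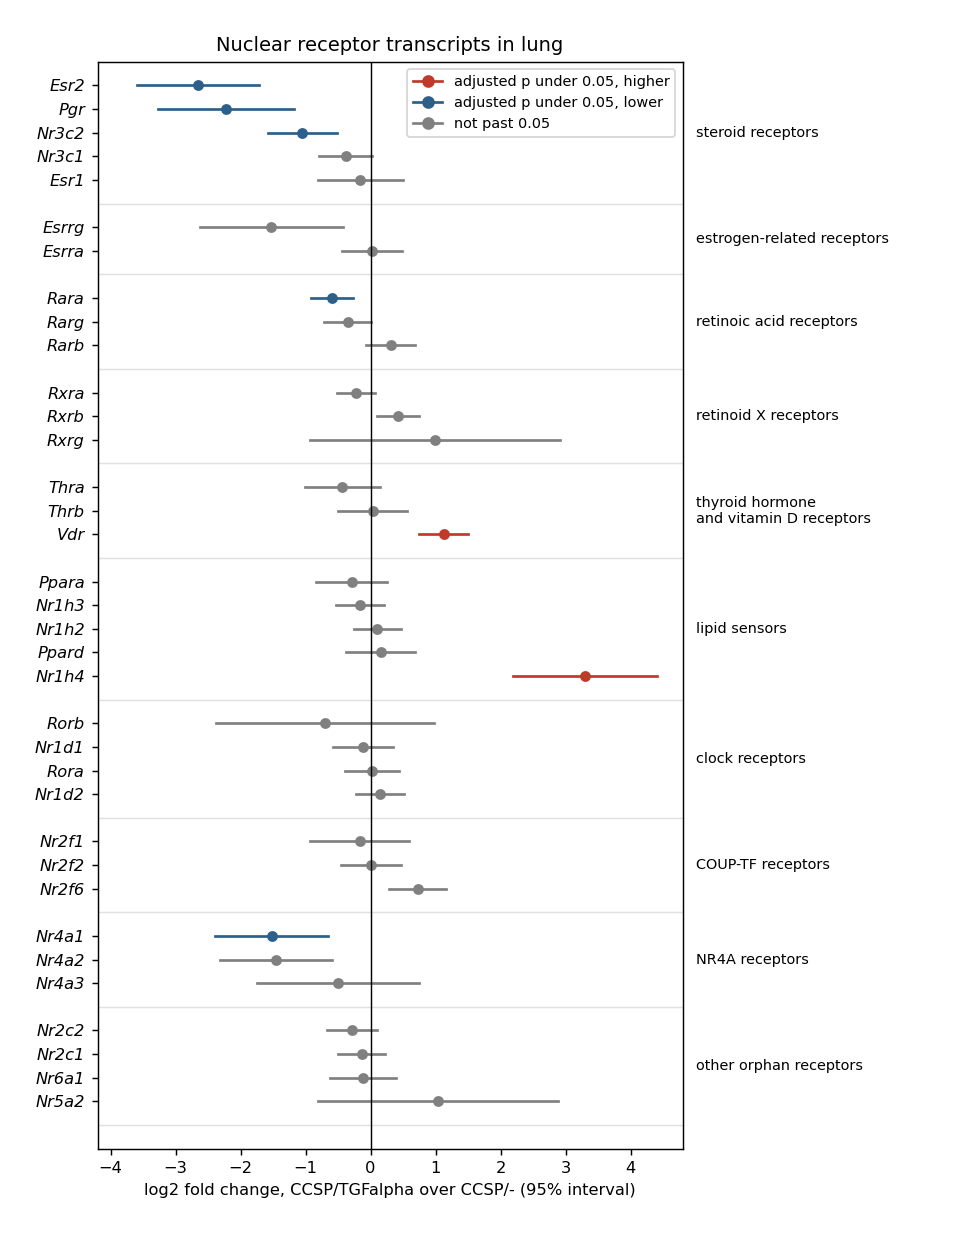
Log2 fold change of CCSP/TGFalpha over CCSP/- for the 35 tested receptors, by class, with 95% intervals from the edgeR fit; a positive value is higher in CCSP/TGFalpha lungs. Nr1h4 at 3.30 and Esr2 at −2.65 lie furthest from 0 on either side, and most other receptors sit within 1 unit of it.

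Levels between genes were compared as CPM per kilobase of exon. In CCSP/TGFalpha lungs the order was led by Nr1d2 at 40.9 CPM per kilobase, Nr2f6 at 28.8, Nr3c1 at 26.3, Nr1h2 at 25.8 and Nr4a1 at 14.7. In CCSP/- lungs the highest mean was that of Nr4a1 at 42.2 CPM per kilobase, then Nr1d2 at 37.0, Nr3c1 at 34.3, Nr1h2 at 24.0 and Nr2f6 at 17.4. The first place of Nr4a1 there rests on CCSP/- replicate 2, at 67.5 CPM per kilobase. In CCSP/- replicates 1 and 3 it had 27.3 and 31.8, below Nr1d2 (36.4 and 37.5) and Nr3c1 (32.0 and 41.2). The same 5 receptors headed both groups in a different order. Among the called receptors, Nr1h4 stood at rank 24 of 37 in CCSP/TGFalpha lungs and 34 in CCSP/- lungs, Vdr at 18 and 22, Esr2 at 32 and 24, and Pgr at 35 and 30.

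**Figure D2:**
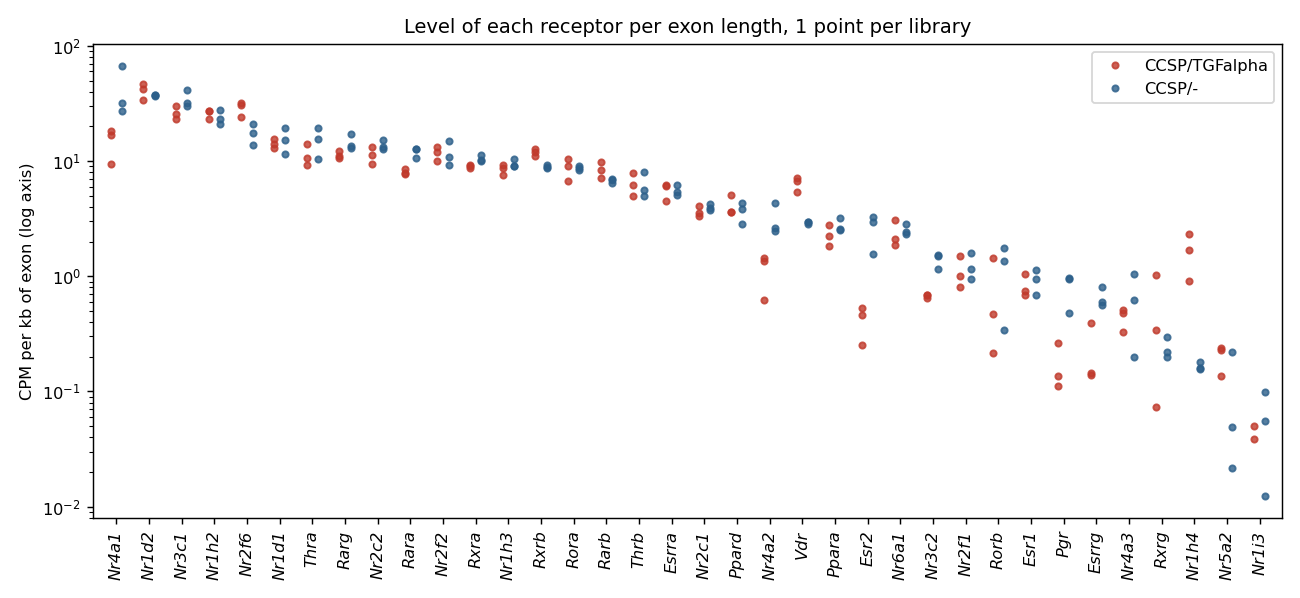
Level of each receptor in CPM per kilobase of exon on a log axis, with a point for each library, CCSP/TGFalpha left of CCSP/-, and receptors ordered by their CCSP/- mean; values of 0 are not drawn. Nr4a1 has the highest mean in CCSP/- lungs, through replicate 2 at 67.5, and the fifth highest in CCSP/TGFalpha lungs.

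Nr1h4 and Vdr, the receptors that rose, both bind ligands made from sterols and both pair with retinoid X receptors. Nr1h4 encodes the farnesoid X receptor, which binds bile acids and is known mainly from liver and intestine. It had 5.36, 3.91 and 2.09 CPM in CCSP/TGFalpha lungs, against 0.361, 0.413 and 0.365 CPM in CCSP/- lungs. The lowest CCSP/TGFalpha library was above the highest CCSP/- library, and the 3 CCSP/TGFalpha libraries differed more among themselves than the CCSP/- libraries did. The raw counts were 126, 95 and 50 in CCSP/TGFalpha lungs and 9, 9 and 8 in CCSP/- lungs, so the CCSP/- level rests on few reads. The log2 fold change was 3.30 ± 0.48 (SE; 95% interval 2.20 to 4.40), a 9.85-fold higher mean, with an adjusted p of 0.00823. The call held in 5 of 6 fits with 1 library left out. It was lost without CCSP/- replicate 3 (adjusted p = 0.0559) and without both replicates numbered 1 (0.0565).

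Vdr encodes the vitamin D receptor, which binds calcitriol. It had 30.9, 29.3 and 23.4 CPM in CCSP/TGFalpha lungs, against 13.0, 12.8 and 12.4 CPM in CCSP/- lungs. Every CCSP/TGFalpha library was above every CCSP/- library, and the CCSP/- values lay close together. The log2 fold change was 1.13 ± 0.17 (95% interval 0.75 to 1.51), 2.18-fold, with an adjusted p of 0.00833, and like that of Nr1h4 it missed the threshold without CCSP/- replicate 3 (0.0544) or without both replicates numbered 1 (0.0519). Among 7 genes for vitamin D supply and response, 5 were tested and 1 passed, where 8.33% of all genes did. The gene that passed was Cyp27a1, a mitochondrial sterol hydroxylase that can 25-hydroxylate vitamin D. Cyp27a1 averaged 7.60 ± 1.83 CPM in CCSP/TGFalpha lungs and 14.6 ± 1.99 CPM in CCSP/- lungs (log2 fold change −0.94, adjusted p = 0.0454). That call was lost in 5 of the 6 fits with 1 library left out and held without CCSP/TGFalpha replicate 3. Cyp24a1, the calcitriol-degrading enzyme and a classic target of the receptor, had no counts in any library.

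The 250 bases before a RefSeq start of each of these genes are shown to set their composition side by side. They were taken from RefSeq annotation of GRCm38.p6, 5′ to 3′ on the strand of the gene. The Nr1h4 window is chr10:89506659-89506908 on the minus strand and the Vdr window is chr15:97908297-97908546 on the minus strand. The Nr1h4 window lies inside the annotated gene, which spans 89454234 to 89533645, so it precedes an internal start. The Vdr window directly precedes the outermost start of the gene. Capitals mark matches on either strand to AGGTCA, the hexamer at the core of many nuclear receptor sites, in Nr1h4, and to GGGCGG, the GC box bound by Sp factors, in Vdr.
Nr1h4: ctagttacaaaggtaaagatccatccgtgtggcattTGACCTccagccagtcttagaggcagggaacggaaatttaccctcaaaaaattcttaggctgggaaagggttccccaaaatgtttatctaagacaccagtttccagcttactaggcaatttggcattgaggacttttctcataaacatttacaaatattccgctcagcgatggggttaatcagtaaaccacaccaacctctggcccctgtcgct
Vdr: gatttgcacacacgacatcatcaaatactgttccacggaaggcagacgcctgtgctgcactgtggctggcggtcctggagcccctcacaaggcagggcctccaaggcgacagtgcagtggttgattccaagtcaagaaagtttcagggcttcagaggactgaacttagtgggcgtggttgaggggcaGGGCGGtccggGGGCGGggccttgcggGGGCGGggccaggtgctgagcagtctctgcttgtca
The Nr1h4 window held 1 match to AGGTCA and 5 CpG dinucleotides. The Vdr window held 3 matches to GGGCGG and 11 CpG dinucleotides.

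Among the steroid receptors, the sex steroid receptors Esr2 and Pgr and the mineralocorticoid receptor Nr3c2 were lower in CCSP/TGFalpha lungs, while Nr3c1 and Esr1 did not pass. Esr2 encodes estrogen receptor beta. It had 0.85, 1.77 and 1.55 CPM in CCSP/TGFalpha lungs, against 5.26, 9.95 and 11.1 CPM in CCSP/- lungs. The highest CCSP/TGFalpha library was well under the lowest CCSP/- library. The log2 fold change was −2.65 ± 0.41 (95% interval −3.59 to −1.72), 6.28-fold lower, with an adjusted p of 0.00986. The call held in 4 of 6 fits with 1 library left out and without both replicates numbered 1, and was lost without CCSP/- replicate 2 (0.0545) or 3 (0.0600).

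Esr1, which encodes estrogen receptor alpha, showed no such separation. It had 8.16, 5.80 and 5.32 CPM in CCSP/TGFalpha lungs, against 8.83, 5.36 and 7.35 CPM in CCSP/- lungs (log2 fold change −0.16, 95% interval −0.82 to 0.49, adjusted p = 0.751). The groups overlapped throughout. Per kilobase of exon, Esr2 made up 19.3, 41.2 and 40.1% of the estrogen receptor transcript in CCSP/TGFalpha lungs, against 57.8, 81.0 and 77.7% in CCSP/- lungs. The mean share was 33.6 ± 12.3% against 72.2 ± 12.5% (SD, n = 3 each). An exact 2-sided permutation test gave p = 0.1, the smallest that 3 against 3 samples allow, and 0.236 after adjustment over the 26 shares of a receptor in its subfamily that were tested, of which 11 (42.3%) had groups without overlap.

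Pgr encodes the progesterone receptor, itself a well-known target of estrogen receptors. It had 0.765, 0.946 and 1.8 CPM in CCSP/TGFalpha lungs, against 3.29, 6.51 and 6.67 CPM in CCSP/- lungs. The groups did not overlap, and CCSP/- replicate 1 was the lowest of its group, as it was for Esr2. For Pgr the log2 fold change was −2.22 ± 0.45 (95% interval −3.26 to −1.18), 4.67-fold lower, with an adjusted p of 0.0275. The call held without CCSP/TGFalpha replicate 3, without CCSP/- replicate 1 and without both replicates numbered 1, and was lost without CCSP/TGFalpha replicate 1 (0.0875) or 2 (0.0773) and without CCSP/- replicate 2 (0.109) or 3 (0.126).

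Nr3c2 encodes the mineralocorticoid receptor, which binds aldosterone and cortisol-like steroids. It had 4.04, 4.24 and 4.23 CPM in CCSP/TGFalpha lungs, against 7.19, 9.21 and 9.5 CPM in CCSP/- lungs. The CCSP/TGFalpha libraries were nearly equal, and all lay below the CCSP/- libraries. Its log2 fold change was −1.05 ± 0.23 (95% interval −1.58 to −0.51) with an adjusted p of 0.0353. The call held in 1 of 6 fits with 1 library left out, that without CCSP/- replicate 1. It was lost without CCSP/TGFalpha replicates 1, 2 and 3 (0.0885, 0.0750 and 0.0646), without CCSP/- replicates 2 and 3 (0.118 and 0.144) and without both replicates numbered 1 (0.0773).

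Nr3c1, which encodes the glucocorticoid receptor and was the most abundant steroid receptor transcript per kilobase in both groups, had 151, 197 and 169 CPM in CCSP/TGFalpha lungs, against 209, 195 and 269 CPM in CCSP/- lungs. CCSP/TGFalpha replicate 2 lay above CCSP/- replicate 2, so the groups overlapped. The log2 fold change was −0.38 ± 0.18 (95% interval −0.79 to 0.03) with an adjusted p of 0.211.

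The promoter windows of Esr2 (chr12:76177260-76177509, minus strand) and Pgr (chr9:8899583-8899832, plus strand), given in the same way, come from the sex steroid receptors that fell. The Esr2 window directly precedes the outermost start of the gene. The Pgr window lies inside the annotated gene, which begins at 8898900. Capitals mark CACGTG, the E-box hexamer, in Esr2 and GGGCGG in Pgr.
Esr2: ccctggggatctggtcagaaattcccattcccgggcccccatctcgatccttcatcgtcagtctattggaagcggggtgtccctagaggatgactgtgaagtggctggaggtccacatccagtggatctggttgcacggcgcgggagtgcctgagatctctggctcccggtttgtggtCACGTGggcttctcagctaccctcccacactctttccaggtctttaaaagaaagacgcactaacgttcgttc
Pgr: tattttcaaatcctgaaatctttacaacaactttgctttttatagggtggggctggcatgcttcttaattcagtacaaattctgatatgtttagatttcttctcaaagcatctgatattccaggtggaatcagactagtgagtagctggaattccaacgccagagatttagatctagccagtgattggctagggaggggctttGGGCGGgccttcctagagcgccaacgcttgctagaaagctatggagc
Each held 1 such match. The Esr2 window had 12 CpG dinucleotides and the Pgr window 4, and neither held AGGTCA.

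**Figure D3:**
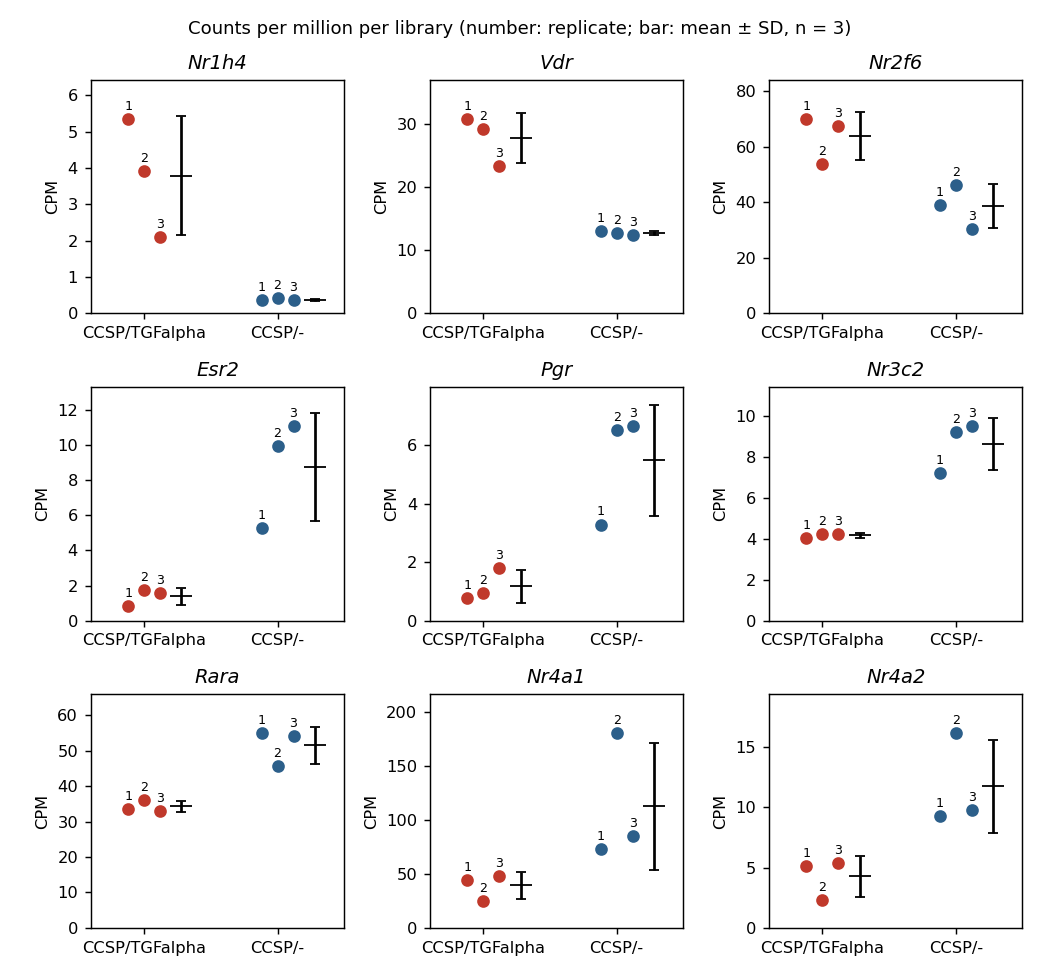
Level in CPM of the receptors named most in the text, with a point for each of the 3 libraries of a group and a bar for the mean ± SD; CCSP/TGFalpha is left of CCSP/- in each panel and axes differ between panels. For Nr1h4 and Vdr every CCSP/TGFalpha point is above every CCSP/- point, and for Esr2, Pgr, Nr3c2, Rara and Nr4a1 every one is below.

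The estrogen-related receptors resemble estrogen receptors in sequence but bind no known natural estrogen and regulate mitochondrial and energy metabolism genes. Esrrg had 2.25, 0.822 and 0.796 CPM in CCSP/TGFalpha lungs, against 4.54, 3.21 and 3.42 CPM in CCSP/- lungs. The groups did not overlap, but the adjusted p was 0.0880 (log2 fold change −1.53, 95% interval −2.63 to −0.42). DESeq2 called Esrrg lower (adjusted p = 0.0284) and limma-voom did not (0.0552). In edgeR it passed without CCSP/TGFalpha replicate 1 (0.0432), which had skeletal muscle transcripts and the highest Esrrg of its group. CCSP/- replicate 1 likewise had those transcripts and the highest Esrrg of its group. Without both replicates numbered 1, Esrrg did not pass. Esrra averaged 12.6 ± 2.15 CPM in CCSP/TGFalpha lungs and 12.4 ± 1.24 CPM in CCSP/- lungs (adjusted p = 0.956).

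The retinoic acid receptors did not move as a group. Rara, which encodes retinoic acid receptor alpha, had 33.7, 36.1 and 33.1 CPM in CCSP/TGFalpha lungs, against 55.0, 45.6 and 54.1 CPM in CCSP/- lungs. All CCSP/TGFalpha libraries were below all CCSP/- libraries. This was a log2 fold change of −0.59 ± 0.14 (95% interval −0.91 to −0.27) with an adjusted p of 0.0422, and this call was lost in every fit with 1 library left out (0.0801 to 0.160) and without both replicates numbered 1 (0.172).

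Rarg had 37.8, 36.0 and 41.7 CPM in CCSP/TGFalpha lungs, against 43.8, 57.8 and 46.0 CPM in CCSP/- lungs (log2 fold change −0.35, adjusted p = 0.192). Rarb, known in other tissues as a direct target of retinoic acid, had 33.0, 28.5 and 24.0 CPM in CCSP/TGFalpha lungs, against 23.2, 23.8 and 21.9 CPM in CCSP/- lungs (log2 fold change 0.31, adjusted p = 0.263). Neither gene had overlapping groups, and they lay on opposite sides, with the CCSP/TGFalpha libraries below for Rarg and above for Rarb. Exons of Top2b, on the opposite strand, cover 52.9% of the Rarb exon length, so reads of the pair cannot be told apart without strand. Top2b averaged 216 ± 17.4 CPM in CCSP/TGFalpha lungs and 228 ± 10.04 CPM in CCSP/- lungs (adjusted p = 0.748).

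The retinoid X receptors are the common partners of the receptors above. Rxrb had 34.7, 32.1 and 37.1 CPM in CCSP/TGFalpha lungs, against 25.3, 25.6 and 26.6 CPM in CCSP/- lungs, with no overlap and an adjusted p of 0.0978 (log2 fold change 0.42). Rxra had 44.8, 47.1 and 46.6 CPM in CCSP/TGFalpha lungs, against 51.4, 58.0 and 52.0 CPM in CCSP/- lungs, also with no overlap but in the other direction (log2 fold change −0.22, adjusted p = 0.310). Neither passed on its own level. Rxrg was low, with 2.34, 0.781 and 0.168 CPM in CCSP/TGFalpha lungs, against 0.682, 0.504 and 0.457 CPM in CCSP/- lungs (adjusted p = 0.479). Its highest value was in CCSP/TGFalpha replicate 1, which also held the most skeletal muscle transcript, and the part of the muscle in that value was not tested.

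Shares within a subfamily, computed per kilobase of exon after the data had been seen, put the retinoid receptors beside each other in the same library. Rxrb made up 55.1, 53.7 and 58.3% of retinoid X receptor transcript in CCSP/TGFalpha lungs, against 45.8, 43.3 and 47.0% in CCSP/- lungs. Rxra made up 42.1 ± 2.29% in CCSP/TGFalpha lungs and 53.4 ± 1.93% in CCSP/- lungs (SD, n = 3 each). The larger share per kilobase belonged to Rxrb in every CCSP/TGFalpha library and to Rxra in every CCSP/- library. Which gene is larger depends on the length scaling, since Rxra had more raw counts in every library (1053, 1145 and 1112 in CCSP/TGFalpha lungs, where Rxrb had 817, 780 and 886), while raw counts gave a like difference between groups in the Rxrb share, 10.002 percentage points against 10.3 per kilobase. Rarb made up 33.9, 30.6 and 26.1% of retinoic acid receptor transcript in CCSP/TGFalpha lungs, against 21, 20.2 and 19.8% in CCSP/- lungs, again with no overlap. Each of these differences had the smallest p that 3 against 3 samples allow, 0.1 in an exact 2-sided permutation test, and 0.236 after Benjamini-Hochberg adjustment over 26 shares.

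**Figure D4:**
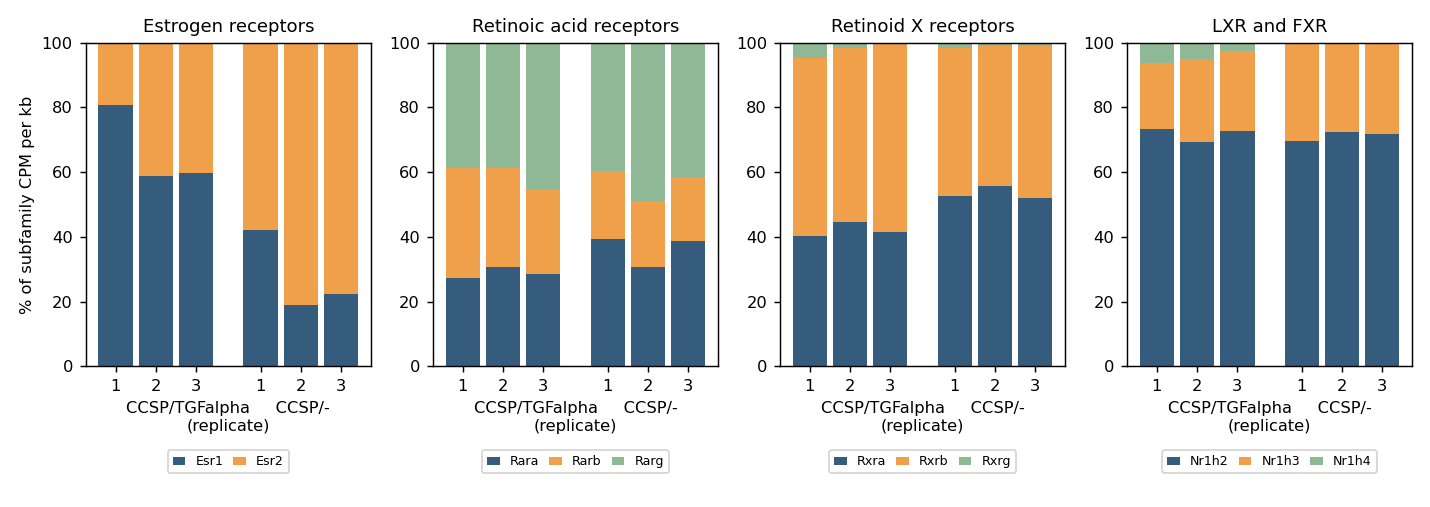
Share of each subfamily's transcript, in percent of CPM per kilobase, as stacked bars for each library of 4 subfamilies; CCSP/TGFalpha is left of CCSP/-. Esr2 averaged 33.6% of estrogen receptor transcript in CCSP/TGFalpha lungs and 72.2% in CCSP/- lungs, with no overlap between groups.

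Retinoic acid acts on these receptors after it is made from retinol, and 17 genes for its synthesis, breakdown and response were listed beside them. Of these, 6 rose, none fell and 11 did not pass, where 5.03% of all genes rose and 3.29% fell. The median log2 fold change was 0.25 against 0.01 over all genes. Aldh1a3, a retinaldehyde dehydrogenase, had 21.6, 23.6 and 9.05 CPM in CCSP/TGFalpha lungs, against 0.923, 0.550 and 1.37 CPM in CCSP/- lungs (log2 fold change 4.25, adjusted p = 0.00294). Rdh10, which makes retinaldehyde from retinol, averaged 64.8 ± 3.72 CPM in CCSP/TGFalpha lungs and 32.0 ± 3.46 CPM in CCSP/- lungs (adjusted p = 0.00702). Aldh1a3 passed in all 6 fits with 1 library left out and Rdh10 in 5. The number that rose was 3 without CCSP/TGFalpha replicate 1 or 2 or CCSP/- replicate 2 or 3, 4 without CCSP/TGFalpha replicate 3, 5 without CCSP/- replicate 1, and 3 without both replicates numbered 1. Of 10 listed fibroblast genes 6 rose, namely Col1a1, Col1a2, Col3a1, Dcn, Lum and Fn1, and 4 did not pass. Of those 4, Tcf21 and Postn had negative log2 fold changes (−0.61 and −0.40, adjusted p = 0.113 and 0.248). The 10 genes summed to 6971 to 11716 CPM in CCSP/TGFalpha lungs against 2037 to 2200 CPM in CCSP/- lungs. The part of fibroblasts in the retinoid genes was not tested. In these whole-lung samples a change in the number of cells of a type cannot be told apart from a change in RNA per cell.

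The NR4A receptors are immediate early genes with no known ligand, switched on quickly by growth factors and calcium. Nr4a1 had 44.7, 25.2 and 48.4 CPM in CCSP/TGFalpha lungs, against 73.1, 181 and 85.2 CPM in CCSP/- lungs. The groups did not overlap, with CCSP/- replicate 2 the highest of all libraries and CCSP/TGFalpha replicate 2 the lowest. The log2 fold change was −1.52 ± 0.38 (95% interval −2.39 to −0.65) with an adjusted p of 0.0468. The call held in 1 of 6 fits with 1 library left out, that without CCSP/- replicate 1, and the other 5 gave adjusted p-values of 0.0733 to 0.130. It was also lost with a robust fit (0.0547) and without both replicates numbered 1 (0.0649). Nr4a2 had 5.10, 2.34 and 5.40 CPM in CCSP/TGFalpha lungs, against 9.27, 16.1 and 9.77 CPM in CCSP/- lungs, with the same libraries at either end, and its adjusted p was 0.0509 (log2 fold change −1.45). DESeq2, limma-voom, DESeq2 size factors, a robust fit, no filter and a stricter filter each called it lower. Nr4a3 overlapped, with 2.93, 1.89 and 2.72 CPM in CCSP/TGFalpha lungs, against 3.57, 5.96 and 1.14 CPM in CCSP/- lungs (adjusted p = 0.591).

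The Nr4a1 promoter window (chr15:101266596-101266845, plus strand) is shown because it had the most CpG dinucleotides of the 5 printed, at 34. It lies inside the annotated gene, which begins at 101253902. Capitals mark 3 matches to GGGCGG, all on the opposite strand.
Nr4a1: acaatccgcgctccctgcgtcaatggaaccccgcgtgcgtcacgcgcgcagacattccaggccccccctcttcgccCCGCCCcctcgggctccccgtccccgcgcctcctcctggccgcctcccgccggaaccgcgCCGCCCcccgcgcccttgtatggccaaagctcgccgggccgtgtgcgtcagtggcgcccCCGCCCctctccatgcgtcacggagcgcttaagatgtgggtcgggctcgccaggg
The window held no match to TGACGTCA, the full cyclic AMP response element, or to TGANTCA, the AP-1 element. Only these forms were searched for. Near variants such as TGCGTCA, which is present in the window, were not counted.

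Over all 32851 RefSeq windows, GGGCGG matched in 32.7%, AGGTCA in 14.0%, TGANTCA in 6.75%, CACGTG in 6.02%, CCGGAAGT (an ETS element) in 2.88% and TGACGTCA in 1.55%, counting both strands. The 52 windows of the 35 matched receptors held these in 48.1, 15.4, 5.77, 9.62, 1.92 and 0% in the same order. Matches to different motifs were counted separately, also where they shared bases. The median window of the receptors had 11.5 CpG dinucleotides and that of all genes 6. Counted by gene over any of its windows, GGGCGG was found for 21 of the 35 receptors, CACGTG for 5 and AGGTCA for 8. Among the 7 called receptors, GGGCGG was found for Nr3c2, Nr4a1, Pgr, Rara and Vdr, CACGTG for Esr2 and Rara, and AGGTCA for Nr1h4. Rara had 4 windows. A match describes the letters in the window and does not show a bound site. The first 25 transcribed bases of 40 of the 52 windows lay in an annotated transcript of the gene.

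Of 12 immediate early genes other than the NR4A receptors, 3 fell, none rose and 9 did not pass. Over all genes tested, 3.29% fell and 5.03% rose. Fosb had 2.98, 2.47 and 2.18 CPM in CCSP/TGFalpha lungs, against 8.23, 15.4 and 7.31 CPM in CCSP/- lungs (log2 fold change −2.02, adjusted p = 0.0158), with CCSP/- replicate 2 again the highest. Fos averaged 93.6 ± 4.30 CPM in CCSP/TGFalpha lungs and 157 ± 9.62 CPM in CCSP/- lungs (adjusted p = 0.0179), and Jun 114 ± 6.23 CPM and 187 ± 32.2 CPM (adjusted p = 0.0400). These encode subunits of AP-1. The number that fell was 2, 0 and 2 without CCSP/TGFalpha replicates 1, 2 and 3, and 3, 0 and 1 without CCSP/- replicates 1, 2 and 3, and 1 without both replicates numbered 1.

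Lipid sensors other than Nr1h4 kept overlapping levels. The liver X receptors, which bind oxysterols, averaged 51.8 ± 4.37 CPM for Nr1h2 in CCSP/TGFalpha lungs and 48.2 ± 6.94 CPM in CCSP/- lungs (adjusted p = 0.699), and 18.3 ± 1.91 CPM against 20.4 ± 1.77 CPM for Nr1h3 (adjusted p = 0.554). The 95% interval of the log2 fold change was −0.25 to 0.46 for Nr1h2 and −0.53 to 0.21 for Nr1h3. Ppara, the fatty acid oxidation regulator, averaged 8.05 ± 1.71 CPM against 9.82 ± 1.38 CPM (adjusted p = 0.470), and Ppard 13.4 ± 2.67 CPM against 12.1 ± 2.51 CPM (adjusted p = 0.698). Within the NR1H subfamily, Nr1h4 made up 6.29, 5.04 and 2.44% per kilobase in CCSP/TGFalpha lungs, against 0.520, 0.466 and 0.489% in CCSP/- lungs.

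Among target genes of these sensors, 1 rose and 1 fell of 12 for the liver X receptors and of 17 for the PPARs, where 8.33% of all genes passed. The median log2 fold changes were 0.05 and 0.02, against 0.01 over all genes. Of 12 liver X receptor targets, Apoe, a lipid transport protein also made by macrophages, rose to 242 ± 68.0 CPM in CCSP/TGFalpha lungs, against 56.5 ± 10.1 CPM in CCSP/- lungs (log2 fold change 2.09, adjusted p = 0.00339, held in all 6 fits with 1 library left out). Pltp, a phospholipid transfer protein, fell to 166 ± 28.8 CPM, against 322 ± 77.6 CPM in CCSP/- lungs (adjusted p = 0.0388), and the other 10 did not pass. The Pltp call was lost without CCSP/TGFalpha replicate 1 or 2 and without CCSP/- replicate 2 or 3. The 8 macrophage genes summed to 7877 to 28553 CPM in CCSP/TGFalpha lungs and 12417 to 34620 CPM in CCSP/- lungs, and none of them passed. Their part in the Apoe values was not tested.

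Of 17 PPAR targets, Angptl4, a lipoprotein lipase inhibitor, had 33.4, 43.4 and 23.4 CPM in CCSP/TGFalpha lungs, against 11, 5.59 and 10.1 CPM in CCSP/- lungs (log2 fold change 1.91, adjusted p = 0.0128), a call lost without CCSP/- replicate 3. Cd36, a fatty acid transporter, averaged 1529 ± 278 CPM against 2984 ± 599 CPM (log2 fold change −0.97, adjusted p = 0.0447), and the other 15 did not pass. The Cd36 call was lost without CCSP/TGFalpha replicate 1 or 2, without CCSP/- replicate 2 or 3, and without both replicates numbered 1. Cd36 is also made by lung endothelium. Of 12 listed endothelial genes 4 fell, where 3.29% of all genes did. All 12 had negative log2 fold changes, with a median of −1.17 against 0.01 over all genes. DESeq2 called all 12 lower, where 14.5% of its genes passed in either direction. The 12 genes summed to 1299 to 2367 CPM in CCSP/TGFalpha lungs and 2467 to 4557 CPM in CCSP/- lungs. The part of endothelium in the Cd36 values was not tested.

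Among the clock receptors, the REV-ERB repressors Nr1d1 and Nr1d2 and the opposing activators Rora and Rorb did not pass. Nr1d2 had 157, 218 and 198 CPM in CCSP/TGFalpha lungs, against 170, 173 and 175 CPM in CCSP/- lungs (log2 fold change 0.15, 95% interval −0.22 to 0.51). Nr1d1 averaged 38.6 ± 3.72 CPM against 41.7 ± 10.5 CPM, and Rora 98.6 ± 21 CPM against 97.2 ± 3.87 CPM (adjusted p = 0.757 and 0.953). Rorb was uneven in both groups, with 4.46, 13.7 and 2.05 CPM in CCSP/TGFalpha lungs, against 16.7, 3.25 and 12.9 CPM in CCSP/- lungs. Of 16 other clock genes, 1 passed, where 8.33% of all genes did. At an unadjusted p under 0.05 in edgeR, 2 of the 16 were higher and 5 lower. The share of all genes under that unadjusted p was not counted, so these counts cannot be judged against it. The gene that passed was Nfil3, a repressor that competes with PAR-domain activators such as Dbp. Nfil3 had 38.4, 27.4 and 17.6 CPM in CCSP/TGFalpha lungs, against 14.1, 12.1 and 8.40 CPM in CCSP/- lungs (adjusted p = 0.0437). That call held without CCSP/TGFalpha replicate 3 and was lost without any other single library. The time of day of collection was not given in the sources used here.

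The thyroid hormone receptors Thra and Thrb overlapped between groups. Thra averaged 35.5 ± 7.65 CPM in CCSP/TGFalpha lungs and 48.0 ± 14.2 CPM in CCSP/- lungs (adjusted p = 0.303), and Thrb 43.0 ± 10.04 CPM and 42.0 ± 10.7 CPM (adjusted p = 0.937). Thra and Nr1d1 share 263 exon bases on opposite strands, 8.33% of the Thra and 9.67% of the Nr1d1 exon length. Of 9 genes for thyroid hormone supply and response, 6 were tested and none passed with edgeR, DESeq2 or limma-voom. Over all genes tested by each, 8.33, 14.5 and 8.7% passed, and 6 genes are too few to be set apart from those shares. In edgeR 1 of the 6 had an unadjusted p under 0.05, and the share of all genes under it was not counted.

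Of the COUP-TF receptors, which act mainly as repressors and in vessel and nerve development, Nr2f6 had 70.1, 53.9 and 67.5 CPM in CCSP/TGFalpha lungs, against 39.1, 46.2 and 30.4 CPM in CCSP/- lungs. The groups did not overlap, and the adjusted p of 0.0539 missed the threshold (log2 fold change 0.73, 95% interval 0.29 to 1.17). DESeq2, limma-voom, a robust fit and a stricter expression filter each called it. Exons of Ocel1, on the opposite strand, cover 41.2% of the Nr2f6 exon length, and Ocel1 itself averaged 7.79 ± 1.61 CPM in CCSP/TGFalpha lungs and 8.30 ± 1.46 CPM in CCSP/- lungs (adjusted p = 0.842). Nr2f2, a marker of venous and lymphatic identity, averaged 57.3 ± 7.64 CPM against 56.8 ± 13.9 CPM (adjusted p = 0.972), and Nr2f1 4.97 ± 1.59 CPM against 5.6 ± 1.53 CPM (adjusted p = 0.776).

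The remaining orphan receptors also overlapped. Nr2c1, Nr2c2 and Nr6a1 had log2 fold changes between −0.28 and −0.11 with adjusted p-values of 0.322 to 0.782. Nr5a2, the liver receptor homolog, had 1.32, 1.27 and 0.754 CPM in CCSP/TGFalpha lungs, against 0.12, 1.24 and 0.274 CPM in CCSP/- lungs (adjusted p = 0.440), with CCSP/- replicate 2 within the range of the CCSP/TGFalpha libraries. Nr1i3, the constitutive androstane receptor, had at most 0.321 CPM in any library and was not tested. Exons of Tomm40l, on the opposite strand, cover 66.1% of the Nr1i3 exon length. Nr0b2, the small heterodimer partner, which lacks a DNA-binding domain and is induced by the farnesoid X receptor in liver, had no counts in any of the 6 libraries. A count of 0 allows up to 3 counts per library, or 0.12 to 0.138 CPM, for counting error only.

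Glucocorticoid receptor targets were examined beside Nr3c1, which did not pass. Of 18, 2 rose, 4 fell and 12 did not pass, where 5.03% of all genes rose and 3.29% fell. The median log2 fold change was −0.30, against 0.01 over all genes. Fkbp5, a cochaperone that lowers the hormone affinity of the receptor, had 45.6, 47.2 and 38.1 CPM in CCSP/TGFalpha lungs, against 13.9, 11 and 9.91 CPM in CCSP/- lungs (log2 fold change 1.91, adjusted p = 0.00183), and passed in all 6 fits with 1 library left out. Dusp1, a phosphatase of MAP kinases that is also an immediate early gene, had 140, 100 and 177 CPM in CCSP/TGFalpha lungs, against 292, 518 and 440 CPM in CCSP/- lungs (log2 fold change −1.58, adjusted p = 0.0158). Nfkbia, the inhibitor of NF-κB, averaged 68.2 ± 13.8 CPM against 115 ± 6.61 CPM (adjusted p = 0.0396). Genes induced by the same receptor elsewhere thus lay on both sides. The number that fell was 0, 3 and 1 without CCSP/TGFalpha replicates 1, 2 and 3, and 1, 0 and 0 without CCSP/- replicates 1, 2 and 3. The number that rose was 1 without any of these except CCSP/TGFalpha replicate 3, where it was 3, and without both replicates numbered 1 there was 1 on each side.

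Of 12 estrogen and progesterone receptor targets, a list that holds Pgr itself, 10 were tested, 1 rose and 2 fell. Over all genes tested, 5.03% rose and 3.29% fell. Igfbp4, a binding protein of insulin-like growth factors, had 561, 523 and 400 CPM in CCSP/TGFalpha lungs, against 152, 238 and 187 CPM in CCSP/- lungs (adjusted p = 0.0109), a call lost without CCSP/- replicate 3 and without both replicates numbered 1. Besides Pgr the gene that fell was Gata3, a transcription factor also abundant in lymphocytes, with 2.59, 4.32 and 6.33 CPM in CCSP/TGFalpha lungs, against 9.55, 11.7 and 22.1 CPM in CCSP/- lungs (adjusted p = 0.0438). The number that fell was 0 without CCSP/TGFalpha replicate 1 or 2 or CCSP/- replicate 2 or 3. The 5 matched lymphocyte genes summed to 54.8 to 126 CPM in CCSP/TGFalpha lungs and 98.0 to 101 CPM in CCSP/- lungs, and none passed.

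The coregulators that receptors recruit showed no called change in edgeR. None of 26 coactivators, corepressors and chaperones passed there, where 8.33% of all genes did. DESeq2 called 2 higher, Fkbp4 and Hdac3, where 14.5% of its genes passed in either direction. In edgeR 6 of the 26 had an unadjusted p under 0.05, and the share of all genes under it was not counted. Fkbp4, a cochaperone of steroid receptors, had 292, 140 and 252 CPM in CCSP/TGFalpha lungs, against 116, 148 and 76.8 CPM in CCSP/- lungs (log2 fold change 1.0, adjusted p = 0.0878). Ncoa3 and Ncoa2, p160 coactivators, averaged 63.2 ± 15.6 CPM against 93.0 ± 1.79 CPM and 49.2 ± 14.1 CPM against 76.1 ± 6.51 CPM (adjusted p = 0.116 and 0.118). Fkbp4 overlapped between groups, and both coactivators lay lower in every CCSP/TGFalpha library.

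**Figure D5:**
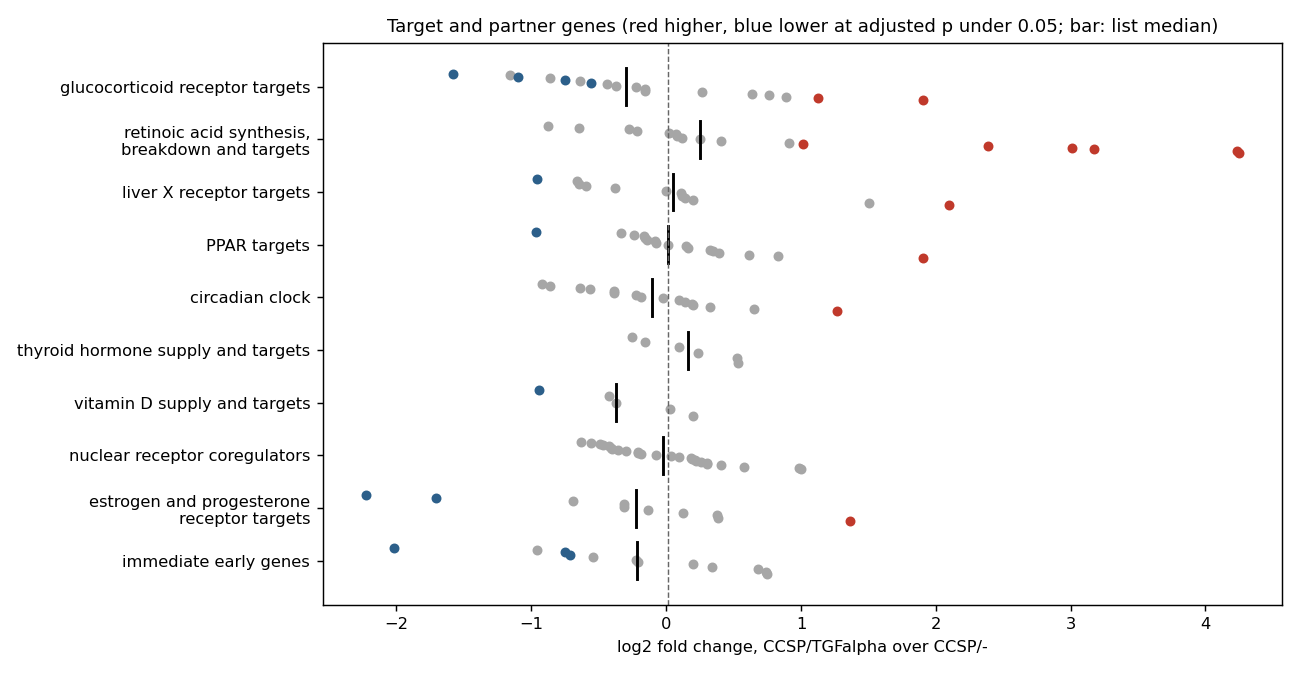
Log2 fold change of CCSP/TGFalpha over CCSP/- for each tested gene of the target and partner lists, with a bar at the median of each list and a dashed line at the median of all genes. The retinoic acid genes reach 4.25 with a median of 0.25, and the coregulators, with a median of −0.02, hold no called gene.

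Markers of several lung cell types differed between the groups alongside the receptors. The counts below stand beside 5.03% of all genes that rose and 3.29% that fell. Besides endothelium and fibroblasts, 4 of 9 alveolar type 1 genes fell, with list sums of 2258 to 3662 CPM in CCSP/TGFalpha lungs and 4216 to 6287 CPM in CCSP/- lungs. Of the airway genes, 4 of 7 for ciliated cells fell (86.5 to 136 CPM against 221 to 259 CPM) and 2 of 5 for club cells (4545 to 6333 CPM against 8934 to 11204 CPM). All 7 ciliated and all 5 club genes had negative log2 fold changes. Of the alveolar type 1 genes, Aqp5, a water channel named after its values were seen, lay the other way, with 188, 111 and 191 CPM in CCSP/TGFalpha lungs, against 85.8, 105 and 89.4 CPM in CCSP/- lungs. Its adjusted p was 0.0616 in edgeR, 0.00803 in DESeq2 and 0.0300 without CCSP/TGFalpha replicate 2. None of the 9 alveolar type 2 genes passed. Of 6 smooth muscle genes 1 rose and 1 fell, with sums of 305 to 741 CPM against 200 to 294 CPM, and of 5 cardiac genes 1 fell (51.1 to 78.6 CPM against 93.1 to 137 CPM). Adipocyte genes summed to at most 51.8 CPM and hepatocyte genes to at most 37.0 CPM in any library, with none that passed. The part of these cell types in the receptor values was not tested. With any library left out, 5 or 6 fibroblast genes rose. Without CCSP/- replicate 1, 1 fibroblast gene, Tcf21, fell (adjusted p = 0.0488), and none fell without any other library. Without CCSP/TGFalpha replicate 1 or 2, or CCSP/- replicate 2 or 3, none of the endothelial or alveolar type 1 genes fell, whereas 10 endothelial genes fell without CCSP/- replicate 1 and 7 without CCSP/TGFalpha replicate 3. Ciliated genes that fell numbered 1 without CCSP/- replicate 2, 2 without CCSP/- replicate 3 and 3 without any other library. Club genes that fell numbered 1 without CCSP/TGFalpha replicate 3 or CCSP/- replicate 2 and 0 without any other library. The smooth muscle gene that rose was lost without CCSP/- replicate 2 or 3, and the smooth muscle gene that fell without those or without CCSP/TGFalpha replicate 1 or 2. Cardiac genes that fell numbered 2 without CCSP/TGFalpha replicate 3 and 0 without any other library.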

How the data were processed

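Per the labels' protocols, total RNA of mouse lung was isolated on columns and sequenced as Illumina libraries. Raw counts per gene, whole and not normalized, were deposited in 1 table of 24061 Entrez identifiers and 6 libraries. The submitters' processing notes name bcl2fastq, CASAVA 1.8, TopHat, DESeq and the build mm10. Not given in the sources used here are the counting tool, its strand setting and the annotation, so reads of genes that overlap on opposite strands cannot be separated. Identifiers were paired with symbols through RefSeq genes of GRCm38.p6, which named 23976 and left 85 unnamed (1.73 to 3.80% of counts per library); these stayed in totals and tests.

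The 37 receptors were taken by name, with no measured value in the rule, but they and all gene lists were chosen with earlier results of these data known. Groups came from the titles and genotype labels. All genes were fitted in edgeR 4.0.16 (R 4.3.3) and tested by quasi-likelihood, with TMM scaling, edgeR's expression filter, group as the only term and Benjamini-Hochberg adjustment over the 16089 genes tested. The threshold was an adjusted p of 0.05. CPM used TMM-scaled library sizes, means are given with SD, and exon length came from GENCODE M21. The biological coefficient of variation was 0.295. Libraries of a group differed beyond sampling noise (chi-square over its degrees of freedom of 48.6 or more). The main edgeR fit, DESeq2 and limma-voom were run on simulated counts with known fold changes and the same dispersion for all genes. The other alternatives were not run on simulated counts.

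The genes named were all 37 receptors, with full statistics for those called, at most 3 genes by adjusted p per target or partner list, and Tgfa and Egfr. The values of 1 gene that this rule takes are not reported here. Receptors that were not called but are described library by library, Cyp24a1, Hdac3, Aqp5, and the set of promoters printed were chosen after their values were seen. The same holds for the fibroblast genes named. Alternatives were other scalings, filters, a robust fit, DESeq2 1.42.0, limma-voom 3.58.1, a replicate block, a threshold of 0.01, and libraries left out. Within-subfamily shares were added after seeing the data. Promoter windows are the 250 bases before each RefSeq start on GRCm38.p6, which can be a start inside the gene. No window was matched for Thra and Nr3c1.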

Additional observations from a re-analysis of the deposited data

How the results depend on the processing

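None of the 7 called receptors, nor Nr4a2, Nr2f6, Esrrg or Rxrb, changed direction under any alternative run; receptors with fold changes near 0, such as Nr1d1, did so with 1 library left out. The 2 higher receptors ranged from 0 to 2 with 1 library left out and were 0 without both replicates numbered 1, and 2 or 3 elsewhere. The 5 lower receptors ranged from 0 to 4 with 1 library left out, and were 2 without both replicates numbered 1, 1 at an adjusted p of 0.01, and 5 to 7 under other scalings, filters and tools. Over all genes, 1340 passed: 238 to 1088 with 1 library left out, 473 without both replicates numbered 1, 260 at 0.01 and 2491 with DESeq2. Leaving out a library also leaves fewer residual degrees of freedom; otherwise the cause was not tested. Raw counts in place of counts per kilobase gave share differences of 14.0 percentage points for Esrra and −14.0 for Esrrg, and of −2.28 for Nr4a1 and 2.84 for Nr4a3. Depth limits Nr1h4, with 8 or 9 reads per CCSP/- library.

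The groups share replicate numbers. Deviations from the group means of same-numbered libraries correlated at 0.421, −0.0516 and 0.222 over genes. The 0.421 was between the replicates numbered 1, which both held skeletal muscle transcripts. CCSP/TGFalpha replicates 2 and 3 correlated best with another number (0.0751 and 0.377). Deviations centred within groups of 3 libraries cannot decide whether same-numbered samples were handled together. With a replicate block, 2 receptors were higher and 3 lower (Esr2, Pgr and Nr3c2), Rara had an adjusted p of 0.0790 and Nr4a1 of 0.0655, and 1470 genes passed.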
